A study of Rattus norvegicus with 16 samples.

Results

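The genes described are 9 that carry, bind, make, break down or respond to retinoids in rat skin: the carrier Rbp4, the uptake receptor Stra6, the binding proteins Crabp1 and Crabp2, the retinaldehyde dehydrogenases Aldh1a1, Aldh1a2 and Aldh1a3, the breakdown enzyme Cyp26b1 and the nuclear receptor Rarb. They were chosen by name, as every probeset annotated to a listed gene. All 9 were measured, by 14 probesets, among 14217 genes and 20826 probesets with 1 gene on the Affymetrix Rat Genome array. The study asked how hairy dorsal skin responds to the loss of its nerves, by hybridising 1 array to the skin RNA of each of 16 adult female Sprague-Dawley rats. The 6 naïve rats had no surgery. Another 5 rats were sampled 7 days, and a further 5 rats 14 days, after their dorsal cutaneous nerves were cut and tied off, with the T11 nerves between the denervated areas left intact as a source of sprouting axons. The skin came from the T9/10 dermatome in all 3 groups, and in the operated rats it was the rostral of the denervated areas. Since the naïve rats had no incision, loss of the nerves and the surgery cannot be told apart here. Values are log2 signals on the RMA scale (robust multi-array average, a summary of a probeset's probes), and a gene is the median over its probesets.

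Retinol travels in blood bound to retinol-binding protein and can enter cells through STRA6. Inside the cell it is oxidised to retinal and then, by the retinaldehyde dehydrogenases, to retinoic acid, which CRABP1 and CRABP2 bind, CYP26 enzymes inactivate, and the nuclear receptors RARA, RARB and RARG read. In skin, retinoic acid is known for its effects on keratinocyte differentiation, sebaceous glands and the hair cycle, and its supply in the follicle changes as hair grows and rests.

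The stretches of DNA before the starts of the 4 members that changed are shown because these genes moved in different directions under 1 treatment, and a short stretch of Rarb because its start is a well-known place for retinoic acid receptor binding. All were taken from RefSeq on the rat build GRCr8, 5′ to 3′ on the strand of the gene, and capitals mark a receptor half-site (AGGTCA or, as variants of it searched for in the same way, GGTTCA or else AGTTCA or lastly GGGTCA, on both strands).
Stra6, chr8:67444507-67444756, plus strand, the 250 bases before the start of the gene: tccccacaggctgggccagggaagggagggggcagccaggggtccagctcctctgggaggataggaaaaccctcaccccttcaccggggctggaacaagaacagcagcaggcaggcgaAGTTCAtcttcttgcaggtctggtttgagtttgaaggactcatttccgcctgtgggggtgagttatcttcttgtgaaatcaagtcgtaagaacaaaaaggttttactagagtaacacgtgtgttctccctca
Aldh1a1, chr1:227537370-227537619, plus strand, 250 bases before a start that lies inside the annotated span of the gene: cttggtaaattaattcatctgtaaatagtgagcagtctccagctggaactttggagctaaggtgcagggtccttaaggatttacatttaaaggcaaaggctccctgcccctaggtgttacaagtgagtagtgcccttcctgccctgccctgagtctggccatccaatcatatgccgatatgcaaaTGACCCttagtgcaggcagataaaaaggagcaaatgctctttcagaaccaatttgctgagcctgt
Aldh1a2, chr8:80758391-80758640, plus strand, the 250 bases before the start of the gene: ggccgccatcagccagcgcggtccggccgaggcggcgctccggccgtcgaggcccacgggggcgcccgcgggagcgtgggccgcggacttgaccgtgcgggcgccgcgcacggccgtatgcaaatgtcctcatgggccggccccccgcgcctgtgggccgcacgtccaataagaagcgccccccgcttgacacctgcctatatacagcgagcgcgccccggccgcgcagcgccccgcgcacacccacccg
Aldh1a3, chr1:129427644-129427893, minus strand, 250 bases before a start that lies inside the annotated span of the gene: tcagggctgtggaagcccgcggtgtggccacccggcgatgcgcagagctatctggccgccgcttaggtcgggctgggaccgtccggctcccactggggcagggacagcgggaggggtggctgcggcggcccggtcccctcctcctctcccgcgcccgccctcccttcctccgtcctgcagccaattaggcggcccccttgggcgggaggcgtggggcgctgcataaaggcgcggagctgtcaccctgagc
Rarb, chr15:11336409-11336438, plus strand, bases 18 to 47 after a start that lies inside the annotated span of the gene: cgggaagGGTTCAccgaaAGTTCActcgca

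In Stra6 the capitals spell AGTTCA, at position -132 from the start. In Aldh1a1 they spell TGACCC, which is GGGTCA on the opposite strand, at position -65. Neither Aldh1a2 nor Aldh1a3 held any of the 4 half-sites in the 300 bases searched (250 before to 50 after the start), and the stretches printed have 77.2% and 73.6% G and C. Rarb held GGTTCA and AGTTCA as a direct repeat with 5 bases between, from 25 bases after its start, and GGGTCA at position -6. At least 1 half-site was found in 3 of the 9 members against 44.4% of all 33469 RefSeq promoters of that length, and the direct repeat with 5 between in Rarb and in 0.382% of all promoters. Direct repeats with 1 or 2 between were in 0.233% and 0.17% of promoters and in no member. These are matches of letters, not binding sites.

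At 14 days Aldh1a3, Stra6 and Aldh1a2 rose against naïve skin, by 4.75-fold, 3.63-fold and 1.27-fold, and Aldh1a1 fell by 1.73 on the log2 scale, a fold of 0.301. Hair follicle genes moved with them, 8 of 9 being higher at 14 days, and adjusted for a hair follicle score no member was called at 14 days, with log2 changes of 0.08 for Aldh1a3, 0.12 for Stra6, 0.34 for Aldh1a2 and -0.35 for Aldh1a1. Adjusted for a skeletal muscle score 0 members were called at 14 days as well, and over all genes the calls at 14 days went from 3343 to 302 and 259 with these adjustments. At 7 days no member passed the test. From 7 to 14 days Stra6 rose 4.21-fold and Aldh1a2 1.49-fold, and their arrays did not overlap between the times. The breakdown enzyme gene Cyp26b1, the binding protein genes Crabp1 and Crabp2, the carrier Rbp4 and the receptor Rarb passed the test in no comparison. The test was limma, fitted to all 14217 genes with a mean per group, with Benjamini-Hochberg adjusted p under 0.05.

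**Figure D1:**
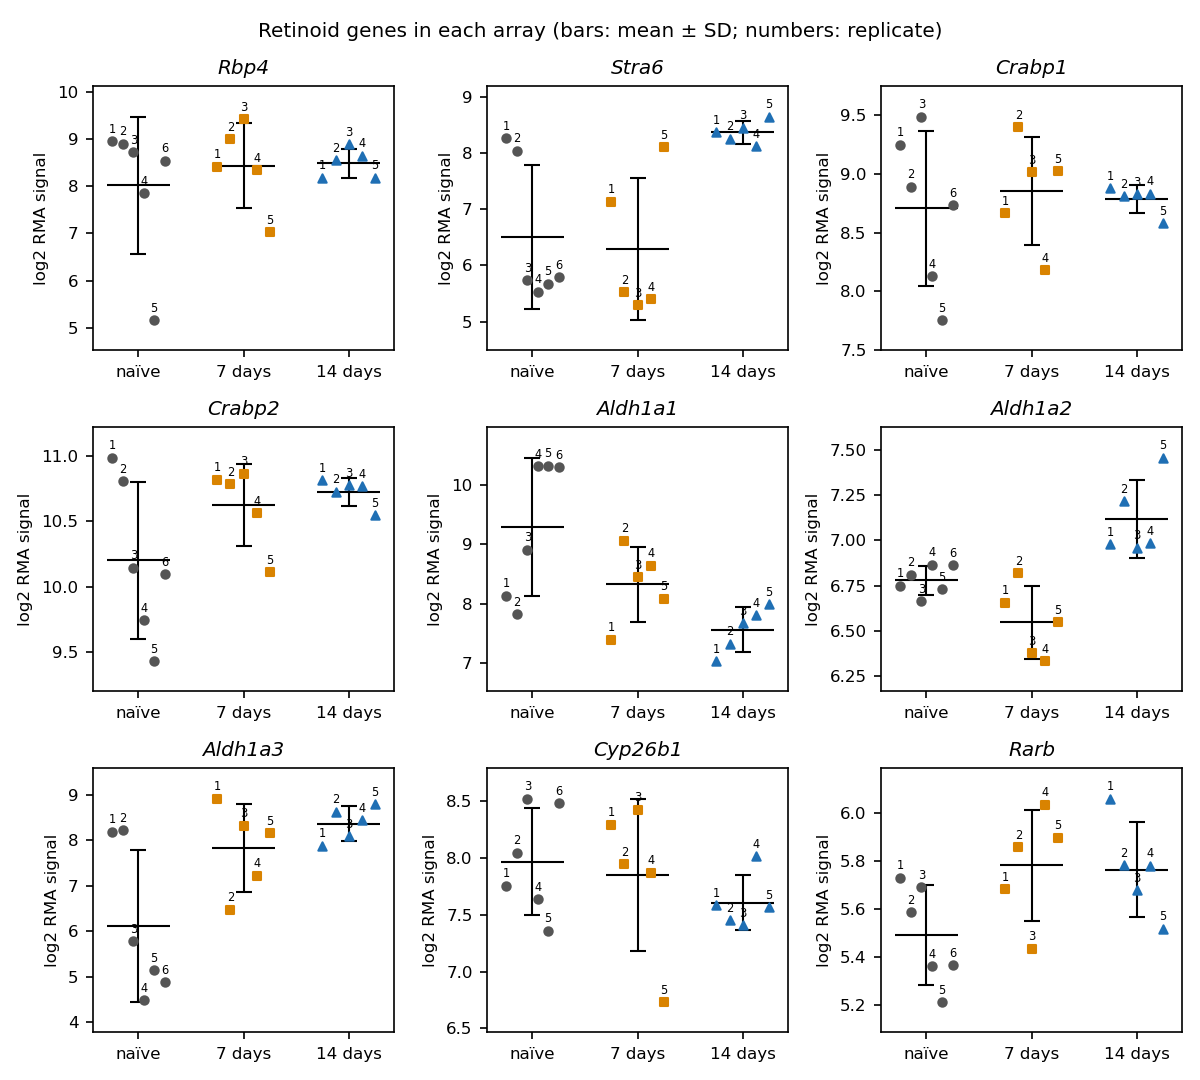
Log2 RMA signal (y axis) of each of the 9 genes in every array of naïve skin and of skin 7 and 14 days after denervation (x axis), with the replicate number beside each point and bars for the mean ± SD. In naïve skin replicates 1 and 2 stand apart for Stra6 (8.26 and 8.04) and Aldh1a3. Aldh1a1 is lower in naïve replicates 1 to 3 than in 4 to 6, whereas Aldh1a2 lies between 6.66 and 6.87 in all 6.

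Of the 9 members, 0 were called higher and 0 lower at 7 days against naïve skin. Of all genes, 7.85% were called higher there and 2.66% lower. An unadjusted limma p under 0.05 was found at 7 days for 3 members (Aldh1a2, Aldh1a3 and Rarb). Such p-values were common over all genes: the largest of the 3, 0.0349 for Aldh1a2, ranked 3547 of 14217 genes. At 14 days 3 members were higher and 1 lower, against 8.95% and 14.6% of all genes. There 6 members had an unadjusted limma p under 0.05, the largest of which, 0.0425 for Rarb, ranked 5325 of 14217 genes. Between 14 and 7 days 2 members were higher and 0 lower, against 8.86% and 10.1% of all genes. The median log2 change of the members was 0.15, 0.34 and 0.05 in the 3 comparisons, beside -0.02, 0.02 and -0.01 over all genes. Both comparisons with naïve skin share the same 6 arrays.

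The naïve arrays were not alike. Correlations between arrays over all genes went down to 0.912 in naïve skin, against 0.972 at 7 days and 0.993 at 14 days. A hair follicle score (mean deviation, on the log2 scale, of 9 measured genes of a list of 21, from each gene's mean over the 16 arrays) was 1.81 and 2.00 in naïve replicates 1 and 2 but between -3.97 and -3.73 in the other 4. It was 1.66, -0.34, 0.83, -0.63 and 1.08 in the 7-day arrays and between 1.77 and 1.89 in the 14-day arrays, with 8 of its 9 genes higher at 14 days. Krt25, a keratin of the inner root sheath, spanned 6.16 to 13.8 in naïve skin, Tchh (trichohyalin) 3.92 to 13.0, and the matrix regulators Msx2 and Lef1 5.10 to 8.58 and 5.56 to 9.60. Krt5 and Krt14, keratins of basal keratinocytes, averaged 12.98 and 13.08 over all arrays, and Ckm, muscle creatine kinase, was at 12.6 or above in each. A skeletal muscle score (11 of 12 genes) lay between -0.65 and 0.92 in naïve skin, -0.79 and 0.50 at 7 days and -0.71 and -0.17 at 14 days. At 14 days 7 of the 11 muscle genes were lower, while Ckm (log2 change -0.65, adjusted p 0.0536) and Acta1 (-0.28, adjusted p 0.0528) missed the limma threshold. Naïve replicate 5 had the lowest scores of all arrays for fibroblasts (-2.14), macrophages (-2.19) and adipocytes (-2.14). In whole skin, fewer cells of a type and less RNA per cell cannot be told apart.

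Rbp4 encodes the protein that carries retinol in blood and is also made in fat. Its log2 signal in naïve replicates 1 to 6 was 8.96, 8.91, 8.73, 7.85, 5.16 and 8.55. After 7 days it was 8.42, 9.0, 9.42, 8.34 and 7.03, and after 14 days 8.19, 8.55, 8.89, 8.65 and 8.19. The groups overlapped, and naïve replicate 5 was far below the rest. Mean levels were 8.03 ± 1.46 (SD, n = 6), 8.44 ± 0.906 (SD, n = 5) and 8.49 ± 0.307 (SD, n = 5), so the order of the groups lay within their spread, with log2 differences from naïve of 0.42 and 0.47 (limma adjusted p 0.657 and 0.579). The lowest Rbp4 array was also the lowest of all 16 in the adipocyte, fibroblast and macrophage scores. The 7-day array with 7.03 had the lowest scores of its group for adipocytes (-0.43), fibroblasts (0.09), sebaceous gland (-0.22) and interfollicular epidermis (-1.37). None of the 7 adipocyte genes was called in any comparison. The genes most like Rbp4 over the 16 arrays were Gng12, a G protein subunit (Pearson r 0.917), Mme, the peptidase neprilysin (0.915), and Hace1, a ubiquitin ligase (0.898).

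Stra6 encodes the cell-surface receptor through which retinol bound to its carrier is taken up. In naïve skin its log2 signal was 8.26 in replicate 1 and 8.04 in replicate 2, against 5.74, 5.53, 5.68 and 5.79 in replicates 3 to 6. Skin at 7 days gave 7.14, 5.53, 5.30, 5.40 and 8.11. All 5 arrays at 14 days were high, at 8.37, 8.25, 8.45, 8.12 and 8.65. Thus Stra6 was above 7 in 2 of 6, 2 of 5 and 5 of 5 arrays, and the 14-day arrays overlapped naïve skin only through naïve replicate 1.

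Against naïve skin the log2 change of Stra6 at 14 days was 1.86 (SE 0.596, limma adjusted p 0.0364), and against 7 days 2.07 (SE 0.622, adjusted p 0.0332) with no overlap. The 7-day change of -0.21 did not pass, with a 95% interval of -1.48 to 1.06. The call at 14 days against naïve was lost when any of naïve replicates 3 to 6 or any 14-day array was left out, with adjusted p up to 0.0838. Calls over all 14217 genes then numbered 1663 to 2555, against 3343 with all arrays. The call against 7 days was lost without 7-day replicate 2, 3 or 4 or any 14-day array (adjusted p up to 0.0823). There 1396 to 2068 of all genes were called, against 2690 with all arrays. All 5 probesets of Stra6 had their highest 7-day values in replicates 1 and 5, and 2 of them fell to 3.38 to 4.87 in the arrays where Stra6 was low, against a lowest value of 3.22 on any array and a 5th percentile of gene means of 4.25. Tested singly, 2 of 5 probesets were called at 14 days against naïve, 1376962_at (log2 change 2.51) and 1385476_x_at (1.43, no overlap), and 3 of 5 against 7 days.

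Stra6 was high where the hair follicle score was high in naïve and 14-day skin. At 7 days it was high in replicates 1 and 5 (7.14 and 8.11), which had the highest scores of the group (1.66 and 1.08). It was not graded with the score there: replicate 3, with a score of 0.83, had 5.30, the lowest value of all arrays. Replicates 2 and 4, with scores of -0.34 and -0.63, had 5.53 and 5.40. After adjustment for the hair follicle score, the log2 change at 14 days against naïve was 0.12 (limma adjusted p 0.911), that at 7 days was -1.35 (adjusted p 0.0296), and that from 7 to 14 days was 1.47 (SE 0.36, adjusted p 0.0121). The 3 genes most like Stra6 over the 16 arrays were Sprr1b, a small proline-rich protein of the cornified envelope (Pearson r 0.986), Tm4sf4, a membrane protein (0.973), and Plekha4 (0.97). In the 7-day arrays Sprr1b was 9.32, 5.43, 6.11, 5.48 and 10.8, so that it too was high in replicates 1 and 5.

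Crabp1 and Crabp2 encode the cellular proteins that bind retinoic acid, and CRABP2 is known to deliver it to nuclear receptors. The log2 signal of Crabp1 was 9.25, 8.89, 9.49, 8.13, 7.76 and 8.73 in naïve replicates 1 to 6. It was 8.66, 9.39, 9.01, 8.18 and 9.02 at 7 days and 8.88, 8.81, 8.82, 8.83 and 8.58 at 14 days. The group means of 8.71 ± 0.658 (SD, n = 6), 8.85 ± 0.458 (SD, n = 5) and 8.78 ± 0.118 (SD, n = 5) differed by less than the spread in naïve skin. The 95% interval of the 14-day difference, -0.51 to 0.66 on the log2 scale (limma adjusted p 0.858), leaves room for changes of either sign. Pfkp, a phosphofructokinase subunit (r 0.91), Hipk1 (0.857) and Inhbb, an inhibin subunit (0.834), were most like it.

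Crabp2 was 10.99, 10.81, 10.15, 9.74, 9.43 and 10.09 in naïve replicates 1 to 6. At 7 days the log2 signal was 10.82, 10.79, 10.86, 10.56 and 10.11, and at 14 days it was 10.82, 10.73, 10.78, 10.77 and 10.55. All 14-day arrays lay above naïve replicates 3 to 6 and below naïve replicate 1, and so overlapped the naïve group. The log2 changes of 0.43 at 7 days (SE 0.234, limma adjusted p 0.236) and 0.53 at 14 days (SE 0.234, adjusted p 0.109) did not pass. Without naïve replicates 1 and 2 they were 0.77 (adjusted p 0.00276) and 0.87 (adjusted p 0.000674), and after adjustment for the hair follicle score 0.02 and -0.10 (adjusted p 0.967 and 0.823). Leaving out those naïve arrays brought the calls to 5040 and 6107 of all 14217 genes. The genes most like Crabp2 were Ywhaq, a 14-3-3 protein (r 0.964), Gramd2b (0.955) and Cap1, a regulator of actin (0.953).

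Aldh1a1, Aldh1a2 and Aldh1a3 encode the enzymes that make retinoic acid from retinal, and their transcripts went different ways. Aldh1a1 had log2 signals of 8.14, 7.82, 8.91, 10.31, 10.32 and 10.29 in naïve replicates 1 to 6. It was 7.40, 9.06, 8.45, 8.64 and 8.08 at 7 days and 7.04, 7.33, 7.67, 7.80 and 7.99 at 14 days. Every denervated array was below the naïve mean of 9.30 ± 1.16 (SD, n = 6), but naïve replicates 1 to 3 lay within the range of the denervated arrays. At 14 days the log2 change was -1.73 (SE 0.464, limma adjusted p 0.0196) and at 7 days -0.97 (SE 0.464, adjusted p 0.176), and the change between the times was -0.76 (adjusted p 0.264). The order was thus naïve, 7 days, 14 days, with neighbours in it not separated by the test. The 14-day call kept its side of the threshold with any single array left out (adjusted p up to 0.0478).

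Aldh1a1 had its 3 highest values in naïve replicates 4 to 6, whose hair follicle scores were -3.93, -3.92 and -3.97 and whose muscle scores, 0.92, 0.91 and 0.74, were the highest of all arrays. Adjusted for the hair follicle score, its 14-day log2 change was -0.35 (limma adjusted p 0.59), and adjusted for the muscle score -0.43 (adjusted p 0.501). Without naïve replicates 4 and 5 it was -1.22 (adjusted p 0.104). Most like Aldh1a1 were Vdac1, a channel of the outer mitochondrial membrane (r 0.978), Fggy, a carbohydrate kinase (0.97), and Cnn1, a calponin of smooth muscle (0.967).

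Aldh1a2 was the steadiest member in naïve skin, with log2 signals of 6.75, 6.81, 6.66, 6.87, 6.73 and 6.86 in replicates 1 to 6. Values of 6.66, 6.82, 6.38, 6.33 and 6.55 were measured at 7 days, and of 6.98, 7.22, 6.96, 6.98 and 7.46 at 14 days. Every 14-day array was above every other array, by a small margin. The log2 change was 0.34 at 14 days against naïve (SE 0.101, limma adjusted p 0.0286) and 0.57 against 7 days (SE 0.105, adjusted p 0.00465), while the 7-day value of -0.23 did not pass (SE 0.101, adjusted p 0.14). The rise from 7 to 14 days passed under all 29 alternatives, with log2 changes of 0.49 to 0.64 and adjusted p of at most 0.0156. Those that left out only naïve arrays could not move this log2 change. Nor could the choice of probeset, as Aldh1a2 had only 1. The smaller one against naïve skin was lost without naïve replicate 3 or 5 or 14-day replicate 2 or 5 (adjusted p up to 0.0707). Calls over all genes were then 1738 to 2555, against 3343 with all arrays.

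Its level in naïve skin did not follow the hair follicle score: replicates 1 and 2, with scores near 2, had 6.75 and 6.81, inside the range of the other 4. Adjusted for that score, the 14-day log2 change against naïve was 0.34 with a wider SE of 0.137 (limma adjusted p 0.198), and the change from 7 to 14 days was 0.57 (adjusted p 0.00409). Tas2r119, a taste receptor (r 0.915), Fetub, a fetuin (0.911), and Sox10, a transcription factor of Schwann cells and melanocytes (0.897), were the genes most like Aldh1a2. With the group means removed these r were 0.757, 0.685 and 0.817. Tas2r119 lay low on the scale, between 4.40 and 5.34. Of the 5 Schwann cell genes measured, 1 was lower at 7 days and 0 were called at 14 days, and 1 was higher at 14 than at 7 days. The dermal papilla list had 1 of 7 genes higher at 7 days, 0 called at 14 days and 1 lower from 7 to 14 days.

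Aldh1a3 had the widest range of the dehydrogenases. Its log2 signal in naïve replicates 1 to 6 was 8.19, 8.23, 5.78, 4.49, 5.14 and 4.89. At 7 days it was 8.92, 6.47, 8.32, 7.22 and 8.16, and at 14 days 7.88, 8.63, 8.09, 8.44 and 8.80. All denervated arrays were above naïve replicates 3 to 6, and naïve replicates 1 and 2 lay among the denervated arrays. The log2 change was 1.70 at 7 days (SE 0.665, limma adjusted p 0.108), 2.25 at 14 days (SE 0.665, adjusted p 0.0281) and 0.55 between the times (adjusted p 0.587).

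The 14-day call was lost without naïve replicate 4, 5 or 6 or 14-day replicate 2, 4 or 5, with limma adjusted p up to 0.0656. Calls over all genes were then 1663 to 2128, against 3343 with all arrays. Without naïve replicates 1 and 2 the log2 changes were 2.75 at 7 days (limma adjusted p 0.000421) and 3.30 at 14 days (adjusted p 3.23e-05). In that setting 5040 and 6107 of all 14217 genes were called. Adjusted for the hair follicle score, the log2 changes of Aldh1a3 were 0.28 (adjusted p 0.555) and 0.08 (adjusted p 0.918). Within the 7-day arrays Aldh1a3 was lowest, at 6.47 and 7.22, in replicates 2 and 4, which also had the lowest hair follicle scores of the group. The genes most like Aldh1a3 were the metallothioneins Mt2A (r 0.973) and Mt4 (0.97) and B9d1, a gene of the ciliary base (0.971). Mt4 ran from 5.21 to 5.74 in naïve replicates 3 to 6 and from 9.93 to 13.4 in all other arrays.

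**Figure D2:**
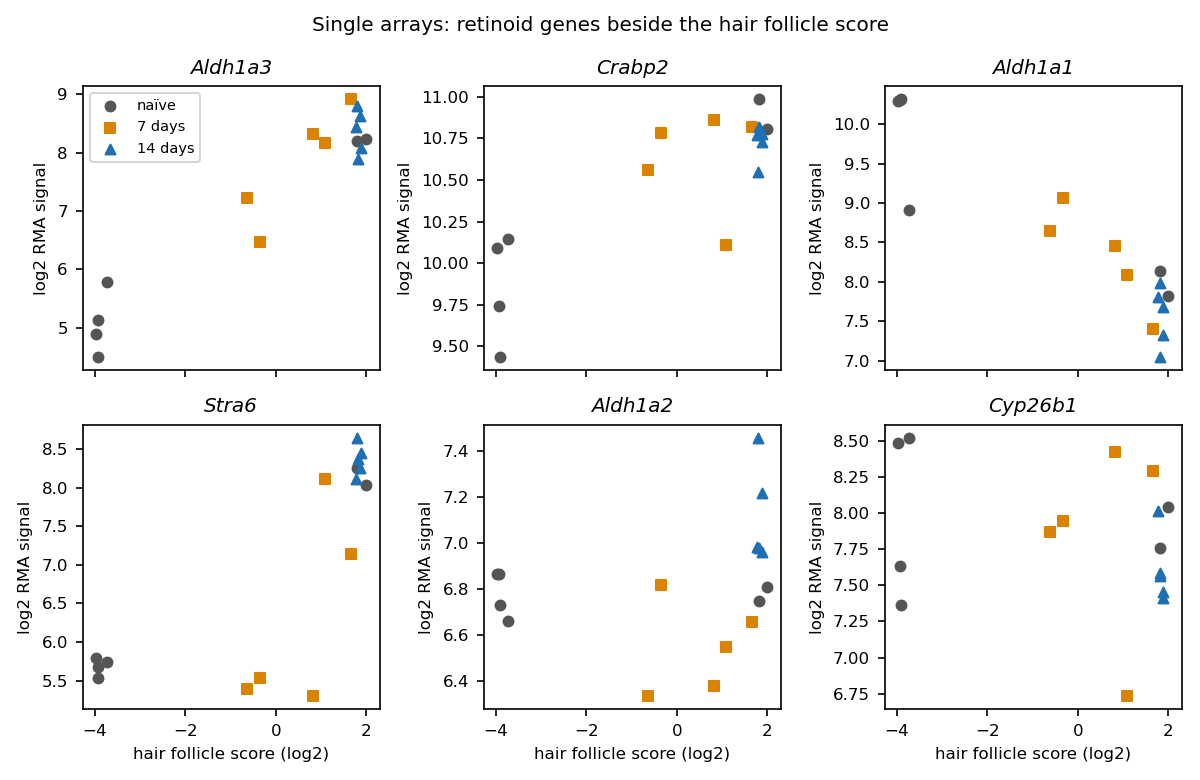
Log2 RMA signal of 6 of the genes (y axis) beside the hair follicle score (x axis, log2 deviation averaged over 9 follicle genes), 1 point per array, coloured by group. The 4 naïve arrays with scores from -3.97 to -3.73 hold the lowest Aldh1a3 values and Aldh1a1 values from 8.91 to 10.32. Stra6 is at 5.30 in a 7-day array with a score of 0.83, and Aldh1a2 is highest in the 14-day arrays.

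Cyp26b1 encodes the enzyme that oxidises retinoic acid to inactive products, and its 2 probesets were averaged. The log2 signal was 7.76, 8.05, 8.52, 7.64, 7.36 and 8.48 in naïve replicates 1 to 6. It was 8.29, 7.94, 8.42, 7.87 and 6.73 at 7 days, and 7.58, 7.45, 7.41, 8.01 and 7.57 at 14 days. The groups overlapped throughout. The log2 differences from naïve skin were -0.11 at 7 days (limma adjusted p 0.801) and -0.36 at 14 days (SE 0.276, 95% interval -0.95 to 0.23, adjusted p 0.343). The probesets gave -0.06 (1376667_at) and -0.66 (1384392_at) at 14 days, and neither passed (adjusted p 0.859 and 0.154). The lowest array, 7-day replicate 5, had the lowest interfollicular epidermis score of all (-1.37) and the lowest sebaceous gland score of its group (-0.22), though none of the 7 epidermis genes or of the 8 sebaceous genes was called in any comparison. Krt79, a keratin of the follicle duct and sebaceous gland (r 0.945), F3, tissue factor (0.893), and Slc19a2, a thiamine carrier (0.884), were most like Cyp26b1.

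Rarb encodes a retinoic acid receptor and is itself a known target of retinoic acid. It was low on the scale, its group means lying at percentiles 25.05 to 29.88 of all gene means. Its log2 signal was 5.73, 5.59, 5.69, 5.36, 5.21 and 5.36 in naïve replicates 1 to 6. It was 5.68, 5.86, 5.43, 6.04 and 5.90 at 7 days and 6.06, 5.78, 5.68, 5.78 and 5.52 at 14 days. The denervated arrays reached higher than the naïve ones but overlapped them, with log2 differences of 0.29 (SE 0.123, limma adjusted p 0.134) and 0.27 (SE 0.123, adjusted p 0.114). Without naïve replicates 1 and 2 these were 0.37 and 0.36, and both passed (adjusted p 0.042 and 0.0434). So did 5040 and 6107 of all 14217 genes without those arrays. Adjusted for the hair follicle score, the Rarb differences were 0.22 and 0.16 (adjusted p 0.333 and 0.618). The direct repeat printed above lies at a start of this gene. Ogfrl1 (r 0.866), Zyx, a focal adhesion protein (0.859), and Gdf11, a growth factor (0.839), were most like Rarb. All these likenesses are descriptions over 16 arrays that share the differences between the naïve arrays and between the groups.

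**Figure D3:**
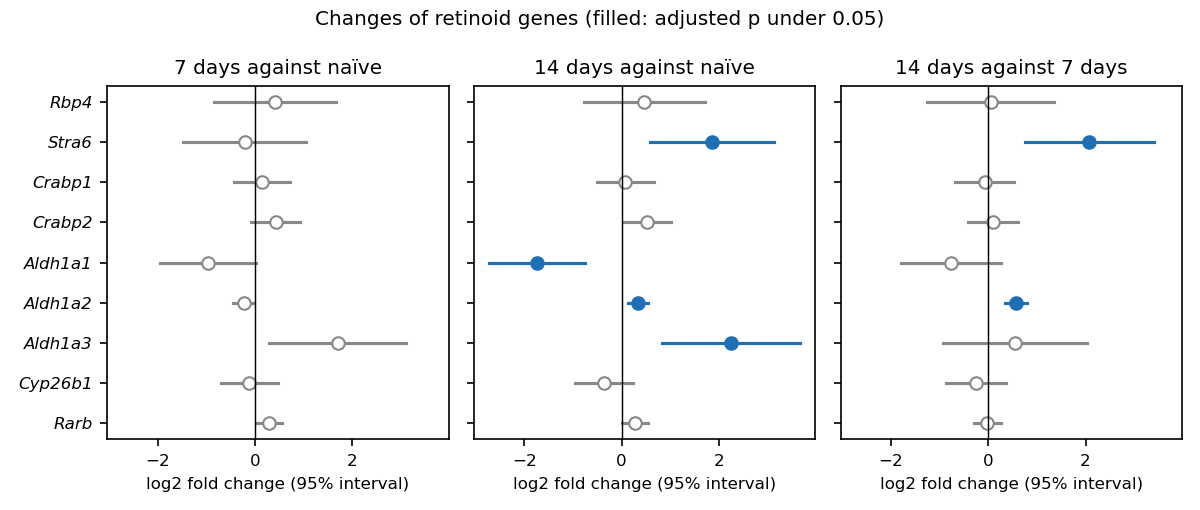
Log2 fold change of each of the 9 genes (x axis, with 95% interval) at 7 days against naïve, 14 days against naïve and 14 against 7 days, filled where the limma adjusted p over all genes was under 0.05. Stra6 (1.86), Aldh1a2 (0.34), Aldh1a3 (2.25) and Aldh1a1 (-1.73) are filled at 14 days against naïve, and Stra6 and Aldh1a2 between 14 and 7 days.

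Synthesis and breakdown were set side by side in each array as the difference from the naïve mean of Aldh1a3, Aldh1a1 or Aldh1a2 minus that of Cyp26b1, on the log2 scale. For Aldh1a3 it was 2.15, 3.03, 2.53, 2.27 and 3.08 in the 14-day arrays and 2.47, 0.38, 1.75, 1.20 and 3.27 in the 7-day arrays. In naïve replicates 1 to 6 it was 2.29, 2.03, -0.90, -1.30, -0.38 and -1.75. Thus it was above 0 in every denervated array and in 2 naïve arrays. For Aldh1a1 it ran the other way, from -1.87 to -0.91 at 14 days and from -2.22 to 0.02 at 7 days, and from -1.56 to 1.63 in naïve skin. For Aldh1a2 it was 0.58, 0.95, 0.74, 0.16 and 1.08 at 14 days, from -0.86 to 1.00 at 7 days and from -0.67 to 0.56 in naïve skin. At 14 days, then, Aldh1a2 and Aldh1a3 were higher and Aldh1a1 lower relative to Cyp26b1 than in the naïve mean in 5 of 5 arrays. No test was made of these differences, and which of the 3 enzymes supplied more transcript cannot be read from different probesets.

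**Figure D4:**
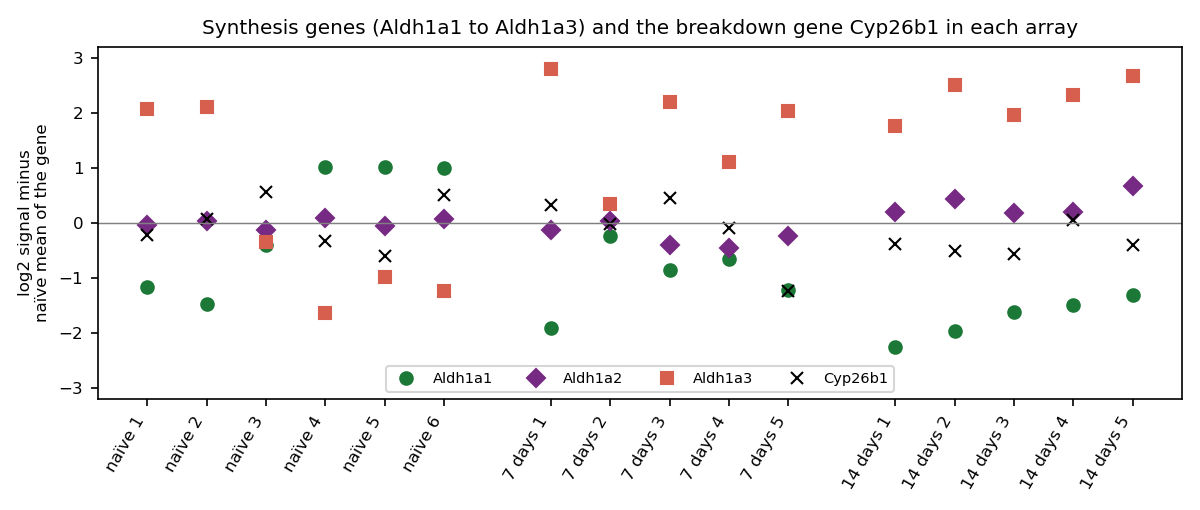
Log2 signal minus the gene's naïve mean (y axis) of Aldh1a1, Aldh1a2, Aldh1a3 and Cyp26b1 in each of the 16 arrays (x axis). Aldh1a3 is above the line and Aldh1a1 below it in all 10 denervated arrays and in naïve replicates 1 and 2. In naïve replicate 3 both are below it.

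Other genes of retinoid handling were taken from a list of 55, of which 47 were measured. At 7 days 3 were higher and 0 lower against naïve skin, at 14 days 4 were higher and 4 lower, and 8 were higher and 4 lower at 14 than at 7 days. Their median log2 changes were -0.07, 0.06 and 0.07. The share of these genes called against naïve skin at either time was under that of all genes given above, while the share higher at 14 than at 7 days was above it. Adjusted for the hair follicle score, 6, 0 and 13 were called in the 3 comparisons, where 1993, 302 and 3363 of all 14217 genes were. Without naïve replicates 1 and 2 these counts were 14, 25 and 17, beside 5040, 6107 and 4267 of all genes, so that calls rose in general. Without naïve replicates 4 and 5 they were 0, 2 and 14, beside 391, 959 and 3344.

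Among the 9 measured carriers, Ttr, which partners RBP4 in blood, rose from 6.28 to 6.56 in naïve skin to 6.71, 6.93, 6.73, 6.75 and 7.11 at 14 days with no overlap (log2 change 0.41, SE 0.0793, limma adjusted p 0.00463), and also against 7 days (0.42, adjusted p 0.00572). Rbp7, a cellular retinol-binding protein, fell by 0.91 at 14 days (adjusted p 0.0273) and by 0.97 from 7 to 14 days (adjusted p 0.0283), its naïve arrays running from 10.25 in replicate 2 to 11.77 in replicate 4. Scarb1, a lipid and carotenoid uptake receptor, rose by 0.64 at 7 days (adjusted p 0.0339). Lrp2, the endocytic receptor megalin, rose by 0.19 from 7 to 14 days (adjusted p 0.032) at a level of 4.99 to 5.35. Of the 8 genes of carotenoid cleavage and retinyl esters, Ces1d, a carboxylesterase, fell by 0.74 at 14 days (adjusted p 0.0486). Between the times Bco1, which cleaves beta-carotene, rose by 0.39 (adjusted p 0.0127), Dgat1, an acyltransferase, fell by 0.28 (adjusted p 0.0379), and Rpe65, the retinoid isomerase of the eye, rose by 0.14 (adjusted p 0.038) at 3.66 to 3.94, near the 1st percentile of gene means (3.78). Lrat, which esterifies retinol, was 7.92 and 7.30 in the first pair of naïve arrays (replicates 1 and 2), against 5.04 to 5.83 in replicates 3 to 6, and its 14-day log2 difference was 1.04 (adjusted p 0.124).

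Retinol is oxidised to retinal, and retinal reduced back, by 17 measured genes, of which 0 were called at 7 days and 2 rose and 2 fell at 14 days. Rdh10, which makes retinal from retinol, rose by 0.33 at 14 days (limma adjusted p 0.0491). Dhrs9, a dehydrogenase, rose by 0.62 (adjusted p 0.00917), with 6.78 to 7.05 at 14 days against 5.92 to 6.77 in naïve skin, and by 0.65 from 7 to 14 days (adjusted p 0.0108). Rdh14 fell by 1.11 (adjusted p 0.0164), its highest values, 7.77, 7.65 and 7.32, being in naïve replicates 4 to 6. Adh5, better known for formaldehyde, fell by 0.22 (adjusted p 0.0295) and by 0.31 from 7 to 14 days (adjusted p 0.0094). Between the times Rdh13 rose by 0.37 (adjusted p 0.00609) and Rdh5 by 0.19 (adjusted p 0.0265). Dhrs3, which reduces retinal and is a known retinoic acid target, had log2 differences of -0.05 and 0.23 (adjusted p 0.766 and 0.1). Neither Aox1 nor Cyp1b1, the 2 other genes measured for the step to retinoic acid, was called.

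Cyp26a1, the other breakdown enzyme measured, was between 4.90 and 5.39 in all arrays, with log2 differences of -0.11 and 0.06 (limma adjusted p 0.277 and 0.495). None of 5 nuclear receptors was called in any comparison: Rara had 0.21 at 7 days (adjusted p 0.0537) and 0.13 at 14 days, Rarg -0.14 and 0.29, and Rxra -0.13 and 0.02. Of 6 known target genes measured, Dhrs3 among them, 2 were higher at 7 days and 1 at 14 days. Rarres2, which encodes chemerin, rose by 1.52 at 7 days (SE 0.365, adjusted p 0.0182), with 10.41, 11.07, 11.22, 11.54 and 10.22 against 7.84 to 10.47 in naïve skin. Its lowest array, naïve replicate 5, also had the lowest macrophage score, and 9 of 10 macrophage genes, 3 of 8 fibroblast genes and 4 of 6 endothelial genes were higher at 7 days. At 14 days 1, 1 and 0 genes of these lists were higher, and 2 macrophage and 3 endothelial genes were lower at 14 than at 7 days. The part of those cells in the Rarres2 value was not tested. Ncoa7, a nuclear receptor coactivator, rose by 0.53 at 7 days (adjusted p 0.0302) and fell by 0.61 from 7 to 14 days (adjusted p 0.0152). Egr3, a zinc finger transcription factor, rose by 0.38 at 14 days (adjusted p 0.0435) and by 0.45 from 7 to 14 days (adjusted p 0.03).

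**Figure D5:**
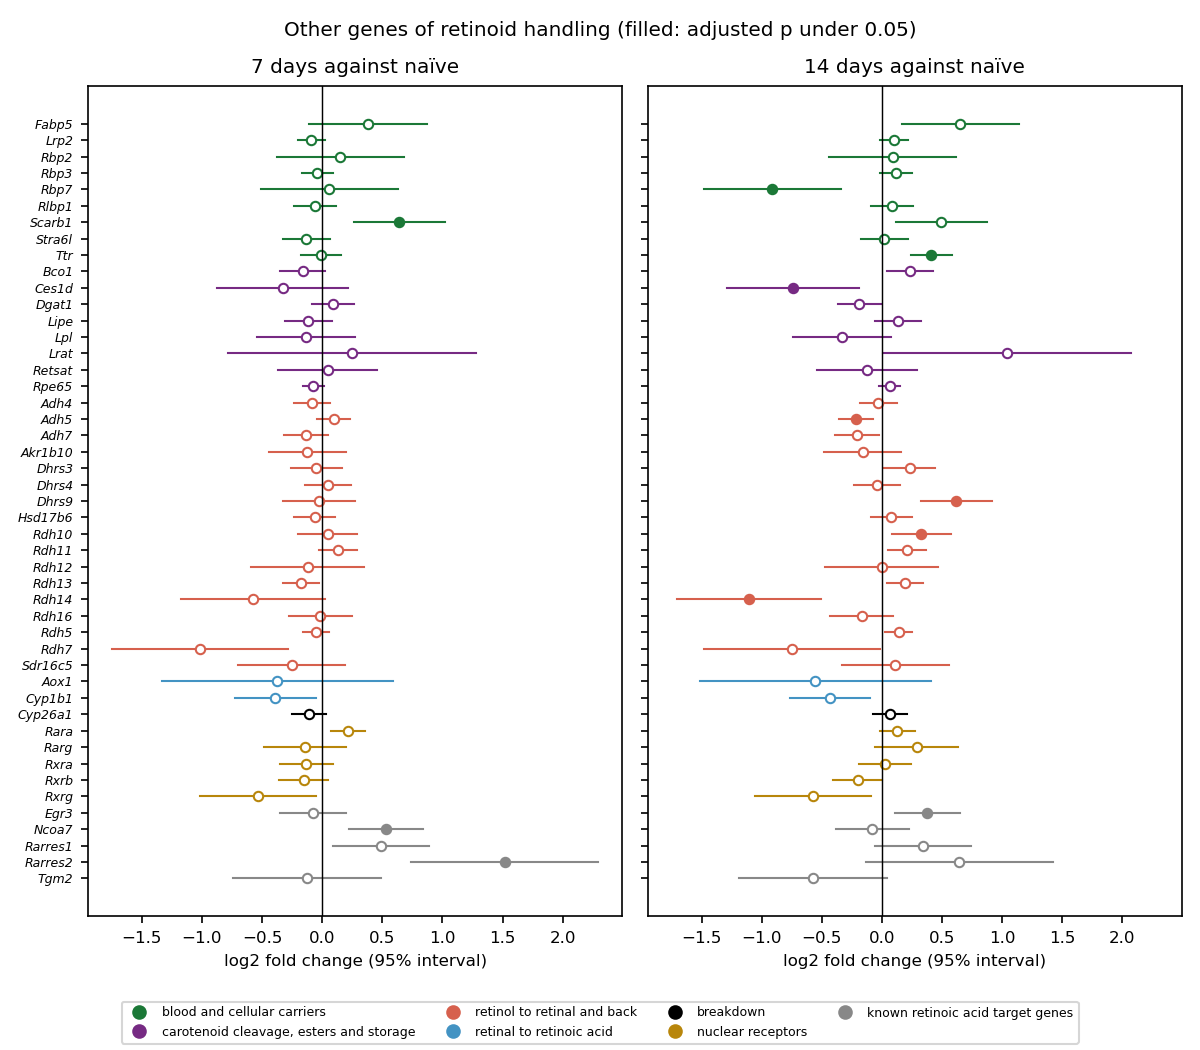
Log2 fold change (x axis, with 95% interval) of the 47 other measured genes of retinoid handling at 7 and 14 days against naïve skin, coloured by role and filled where the limma adjusted p over all genes was under 0.05. At 7 days 3 genes are filled, all to the right, and at 14 days 4 are filled to the right and 4 to the left.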

How the data were processed

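Skin RNA of 16 rats (naïve n = 6, 7 days n = 5, 14 days n = 5) was hybridised to 1-colour Affymetrix arrays for the rat genome. Per probeset, log2 values that RMA had background-corrected, quantile-normalized and summarised were deposited by the authors, with R 3.0.1 named in their processing notes. For RMA the version was not given in the sources used here. Quantile normalization makes the distributions of the arrays alike (array medians of the deposited values were 6.25 to 6.31), so values are relative to the other genes of an array. Precision depends on how many arrays there are and on the spread between them.

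Of 31099 probesets, 57 controls, 9780 with no gene and 436 with several genes in the platform annotation were left out. The other 20826 gave 14217 genes by the median over probesets, 4525 of them with over 1. Of these probesets 20758 matched RefSeq by Entrez identifier, and 0 symbols differed. With limma 3.58.1 in R 4.3.3, 1 linear model with a mean per group over the 16 arrays gave 3 contrasts, moderated by eBayes. p-values were adjusted by Benjamini-Hochberg over all genes, with a threshold of 0.05. The procedure was tested on simulated data. These had the same spread of a gene in all groups, so the test does not cover naïve arrays as uneven as those here. Tables and plots were made with Python 3.11.15, pandas 2.3.3 and matplotlib 3.10.9.

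The members, the gene lists and the alternatives were chosen with earlier results of these data known. Named genes were the 9 members, up to 12 called genes of the retinoid list per comparison, 7 measured genes of it (Rdh10, Dhrs3, Lrat, Cyp26a1, Rara, Rarg, Rxra) whatever their values, the 3 genes most correlated with each member, Krt25, Tchh, Msx2, Lef1, Ckm and Acta1. Names given to other genes of these lists, the marker scores quoted beside single arrays and Sprr1b and Mt4 values were picked after their values were seen. A list score is the mean, over measured genes, of the log2 value minus the gene's mean over the 16 arrays. Lists were those for hair follicle, dermal papilla, sebaceous gland, interfollicular epidermis, fibroblast, macrophage, skeletal muscle, adipocyte, Schwann cell and endothelium.

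Alternatives were the brightest probeset or each probeset in place of the median, leaving out the dimmest 25% of genes, array medians subtracted, a repeated quantile normalization, array weights, trended and robust moderation, only the groups compared, the replicate number as a block, adjustment for the hair follicle or muscle score as a covariate, thresholds of 0.01 and 0.1, and arrays left out. Those for the retinoid list were added after seeing the data. Promoter sequences (250 bases before to 50 after a start) came from RefSeq on GRCr8 and matched all 9 members by symbol. Protein sequences were not used here. Labels give each rat its own array but name no hybridisation batch.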

Additional observations from a re-analysis of the deposited data

Results flagged for a closer look

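Among the 27 groups of arrays of single members (9 genes in 3 groups), 3 held an array far from the others by Dixon's criterion, which chance alone meets in about 1 in 20 groups. Rbp4 was 5.16 in naïve replicate 5, which also had the lowest adipocyte, fibroblast and macrophage scores of all arrays. Crabp1 was 8.58 in 14-day replicate 5, the lowest of a group that otherwise lay between 8.81 and 8.88. Cyp26b1 was 8.01 in 14-day replicate 4, the highest of its group.

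The change from naïve skin differed between the 2 times for Stra6, by 2.07 on the log2 scale (limma adjusted p 0.0332), and for Aldh1a2, by 0.57 (adjusted p 0.00465). For both genes 14 days was above 7 days in 5 of 5 arrays. Time since loss of the nerves and time since surgery cannot be told apart here. The hair follicle score also differed, at -0.63 to 1.66 in the 7-day arrays and 1.77 to 1.89 in the 14-day arrays. The Stra6 difference was lost with 7-day replicate 2, 3 or 4 or any 14-day array left out (adjusted p up to 0.0823). Calls over all genes were then 1396 to 2068, against 2690 with all arrays. That of Aldh1a2 passed without any single array.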

How the results depend on the processing

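Of the 9 members, 0 were called at 7 days, 4 at 14 days and 2 between the times. With any single array left out they ranged from 0 to 2, 1 to 5 and 1 to 2. Calls over all 14217 genes then ranged from 629 to 2667, 1663 to 4840 and 1396 to 3099. With array weights 3 were called at 7 days, where 3842 of all genes were. Adjusted for the hair follicle score, 1 was called at 7 days and 0 at 14 days, where 1993 and 302 of all genes were. Adjusted for the muscle score, 0 were called at 14 days and 1 between the times, where 259 and 2808 of all genes were. At a limma adjusted p under 0.01, 0 were called at 14 days and 1 between the times, where 788 and 553 of all 14217 genes were. Without naïve replicates 1 and 2, 4 were called at 7 days and 6 at 14 days, where 5040 and 6107 of all 14217 genes were, and without naïve replicates 4 and 5, 0 at 14 days, where 959 were. Apart from these and the replicate block below, the alternatives kept the counts within 1.5 times.

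With the replicate number as a block (replicate block), 2 members were called at 14 days, where 1266 of all 14217 genes were, against 3343 without the block. Stra6 then had a limma adjusted p of 0.0774 and Aldh1a3 of 0.0803. Each array came from its own rat, and the labels name no pairing by number. Of 15 pairs of same-numbered arrays, 8 had deviations correlated over 0.1 (r from -0.552 to 0.583). Arrays of unlike number were not compared, so these correlations cannot show whether the numbers pair the arrays.

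Over the single members, 733 values under alternatives kept their side of the threshold, most of them values not called to begin with. Another 47 lost a call, 18 gained one and 0 changed sign among called values. At 14 days against naïve Stra6 lost its call in 16 of 33 alternatives, Aldh1a3 in 10 of 29, Aldh1a2 in 7 of 29 and Aldh1a1 in 3 of 29. Between the times Stra6 lost it in 11 of 33 and Aldh1a2 in 0 of 29. With all arrays 1494 genes were called at 7 days and 3343 at 14 days. The causes were not tested. The naïve group, with 6 arrays of uneven hair follicle score, limits every comparison with it, and the signals of Rarb and of 2 Stra6 probesets lay low on the scale.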
